A study of Aethionema arabicum with 12 samples.

Results

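Seeds of *Aethionema arabicum*, a small crucifer related to Arabidopsis, were held in white light for 7 d or for 14 d, and the comparison described here is that of the second week: 14 d against 7 d of light. The default expression filter of edgeR was applied to all 12 libraries of the series in their 4 groups. It left 15301 of the 24932 gene models in the deposited table. A model could pass by its counts in another group, so some tested models had few or no counts in the 6 libraries compared. Applied to these 6 libraries alone, the filter left 14043 gene models. Both groups were imbibed seeds of the Cyprus accession on wet filter paper at 14 °C under 100 µmol m-2 s-1 of white light, harvested whole while intact and ungerminated, and each was sequenced as 3 libraries of poly(A)-selected RNA. The other libraries of the series, 3 after 1 d (23 h) of light and 3 after 7 d of light followed by 7 d of darkness, served to estimate the spread and are given beside the values where they bear on a gene. All 4 groups are labelled WT (wild type) and are of the same accession, and the labels name no added compound. No label states if the 3 libraries of a group came from separate batches of seeds. The p-values therefore rest on the variation among the libraries at hand, some of which may be technical.

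Light stops germination in seeds of the Cyprus accession, whereas in many other species it promotes it. An imbibed seed that is kept from germinating can enter secondary dormancy, a state in which it no longer germinates when conditions become permissive. In seeds at large, abscisic acid (ABA) holds dormancy and gibberellin (GA) drives germination, so that the enzymes that make and break down these hormones, together with dormancy genes such as *DOG1*, set much of the balance. A seed also carries stored protein and oil, the transcripts of which are made during maturation, and undeveloped plastids that are rebuilt when a seedling turns green.

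Whole seeds were sequenced, so embryo, endosperm and seed coat are mixed, and fewer cells of a type cannot be told apart from less RNA per cell. The gene list of storage and oil body proteins, which mark the embryo, had a summed level of 4394 to 10570 CPM (read counts scaled to a fixed total, with library sizes adjusted by TMM) in the 6 libraries. The list of endosperm markers had 366 to 395 CPM in these libraries, with overlap between the groups. Of its 10 gene models 4 were tested, with log2 fold changes of -0.31 to 0.73. At 14 d 1 of them lay wholly higher and 1 wholly lower, so the sum does not describe each marker. The list of seedling and root markers, 8 gene models, had 8.27 to 19.0 CPM in the 6 libraries against 156 to 175 CPM after 1 d of light. The list of seed coat markers had 15.3 to 43.5 CPM in the 6 libraries, with overlap between the groups.

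The replicates were unlike each other within both groups. Total counts were 2689668, 2297530 and 1596668 in replicates 1, 2 and 3 of 7 d, and 916523, 2448092 and 1364240 in replicates 1, 2 and 3 of 14 d; values per library are given in this order throughout. For each library, the log2 CPM deviation of every gene from the 6-library mean was regressed on log2 gene length. The slope was 0.093, 0.096 and -0.057 in the 7 d libraries and -0.104, 0.068 and -0.096 in the 14 d libraries. Replicates 1 and 2 of 7 d and replicate 2 of 14 d therefore held relatively more reads of long genes, and replicate 3 of 7 d with replicates 1 and 3 of 14 d relatively more reads of short genes. Chi-square per degree of freedom between libraries of like sign was 1.3 to 2.24, and between libraries of unlike sign 5.55 to 8.75, whichever group they came from. The 3 libraries of negative slope were also the 3 with the fewest counts of the 6. Chi-square was computed on raw counts and also depends on depth. The labels name no batch, and the source of the split was not tested.

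**Figure D1:**
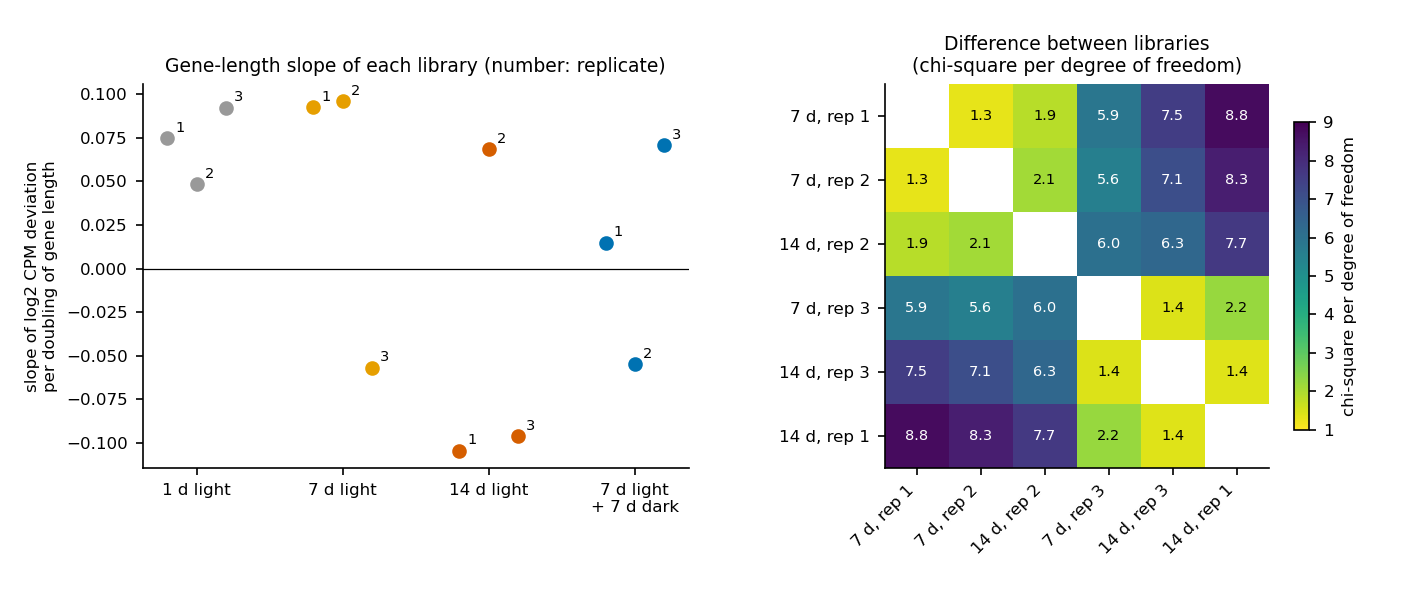
Left, the slope of log2 CPM deviation per doubling of gene length for each of the 12 libraries, by group, with the replicate number beside each point. Right, chi-square per degree of freedom for each pair of the 6 libraries of 7 d and 14 d light; replicates 1 and 2 of 7 d stand with replicate 2 of 14 d, and the other 3 libraries stand together, with 1.3 to 2.24 inside each block and 5.55 to 8.75 across.

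The split allowed each difference to be read in a further way. In libraries of positive slope, replicate 2 of 14 d was set against the mean of replicates 1 and 2 of 7 d, and in libraries of negative slope the mean of replicates 1 and 3 of 14 d against replicate 3 of 7 d. These 2 differences share no library. Over the 13024 gene models with a mean of at least 8 CPM, they had the same sign in 63.0% and a Pearson r of 0.49 across genes, which are not independent replicates. In 43 of them the level was at least 1 log2 unit higher at 14 d in both kinds of library, and in 16 at least 1 log2 unit lower. Only 2 moved by that much in opposite directions. The 43 included 28 gene models whose Arabidopsis partner lies in the plastid or mitochondrial genome and 8 with no Arabidopsis partner. Among all 15301 tested gene models, 47 had a partner in these genomes and 595 had no partner.

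With 4 group means fitted to all 12 libraries, edgeR's quasi-likelihood test called 47 gene models at an adjusted p under 0.05, that is 0.307% of those tested. Of these, 25 were higher after 14 d (0.163%) and 22 lower (0.144%). The 3 libraries of 14 d lay wholly above those of 7 d in 817 gene models (5.34%) and wholly below them in 997 (6.52%). A lack of overlap is given below only to describe single genes. Many uncalled genes named below were picked for a small p, which favours such separation, so it is no further evidence for them. The number called depended on single libraries. It was 13 without replicate 2 of 7 d, 20 without replicate 1 of 7 d, 22 without replicate 3 of 14 d, 31 without replicate 1 of 14 d, 99 without replicate 3 of 7 d and 1662 without replicate 2 of 14 d. In every one of the 12 fits that leave out a library, 12 of the 47 stayed past the threshold; these 12 are named as such below. A fit of the 6 libraries alone called 24 gene models, of which 9 were among the 47. It did not call 5 of the 12, namely *PSBP1* (adjusted p = 0.0806), the ascorbate oxidase (0.0738), Aa31csc39G110 (0.0688), *PILS5* (0.0668) and *TUB3* (0.054). With counts thinned to the smallest library, 2 others of the 12 were not called, cytochrome f (0.122) and the PLAT/LH2 gene (0.111). When the length slope of each library was added to the fit as a covariate, a choice made after the data were seen, 510 gene models were called (3.33%), 300 higher (1.96%) and 210 lower (1.37%), and all 47 were among them. A call in that fit is referred to below as a call with the slope covariate. The slopes were computed from the same counts, and their signs were unevenly split between the groups. The common dispersion, a measure of spread between libraries, was 0.000915 in that fit against 0.0177 with 4 group means. Adjusted p-values with the covariate therefore rest on a much smaller spread. Where first-week differences are given (7 d against 1 d of light, 9243 called gene models, 60.4%), they share the 7 d libraries with the second-week comparison.

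**Figure D2:**
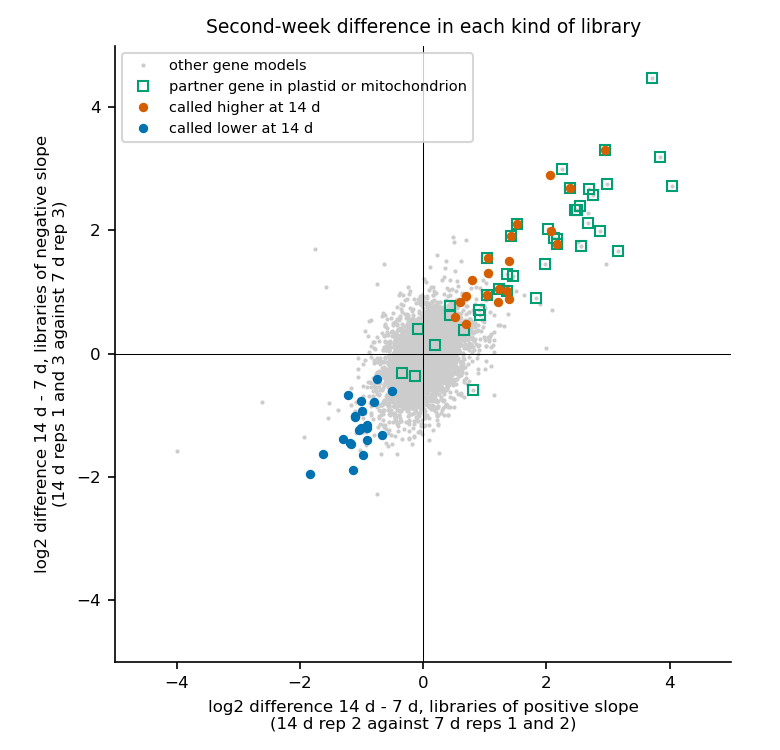
Each point is 1 of the 13024 gene models with a mean of at least 8 CPM, with its log2 difference between 14 d and 7 d in the libraries of positive length slope (horizontal) and of negative slope (vertical). Most gene models partnered with plastid or mitochondrial genes (squares) lie in the upper right, away from the cloud; called gene models lie along the diagonal, as the test required of them.

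Gene models paired with plastid-encoded genes, which specify parts of the photosynthetic and expression machinery of the plastid, held 7 of the 25 rises. Of 16 such models, 14 were tested. Of the 14, 7 were called higher, against 0.163% of all tested genes, and none lower. A positive log2 fold change was found in 12, and the median was 1.21 against -0.01 over all tested genes. The median was 1.39 in libraries of positive slope and 1.17 in those of negative slope. With the slope covariate, 12 of the 14 were called higher (1.96% of all tested genes). Summed over the 16 models, the level was 543, 496 and 382 CPM after 7 d and 1066, 1246 and 840 CPM after 14 d. Every 14 d library thus held more of these transcripts than every 7 d library. Plant organelle transcripts mostly lack the long poly(A) tails of nuclear mRNA, so that counts from poly(A)-selected RNA do not give total organelle RNA. Copies of plastid DNA also occur in plant nuclear genomes. The sources used here do not state how reads were divided between near-identical copies, so the level of any single model is uncertain.

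The model paired with the Rubisco large subunit gene (Aa31sc227G10), which codes for the catalytic subunit of the enzyme that fixes CO2, had 12.9, 8.38 and 8.90 CPM after 7 d and 114, 86.5 and 80.2 CPM after 14 d. Its lowest 14 d library was several times its highest 7 d library. The log2 fold change was 3.15 ± 0.21 (SE; adjusted p = 2.04e-05), the smallest adjusted p of the comparison, and it was 1 of the 12 that kept their call without any single library. After 1 d of light the model had 6.10 ± 1.87 CPM (SD, n = 3), and after light then darkness 79.0 ± 3.66 CPM.

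Subunits of the chloroplast ATP synthase, which makes ATP from the light-driven proton gradient, rose as well. The alpha subunit model (Aa31csc39G200) went from 112, 112 and 73.2 CPM to 314, 302 and 243 CPM (log2 fold change 1.52 ± 0.21, adjusted p = 0.00889), and kept its call without any single library. The model of the subunit B of the membrane part (Aa31csc39G190) went from 94.0, 84.2 and 95.4 CPM to 220, 183 and 157 CPM (1.03 ± 0.15, adjusted p = 0.00969), and that of subunit C (Aa31csc39G180), which forms the rotating ring, from 5.53, 2.65 and 1.91 CPM to 21.3, 23.8 and 13.5 CPM (2.45 ± 0.36, adjusted p = 0.0108). None of the 3 overlapped between the groups. Without replicate 2 of 7 d the adjusted p was 0.0779 for subunit B and 0.0755 for subunit C, and without replicate 1 of 7 d that of subunit B was 0.0528. The 3 models carry consecutive identifiers on the same scaffold, as do models paired with the plastid ribosomal protein S2 (Aa31csc39G170) and, further along, an RNA polymerase subunit (Aa31csc39G120).

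The model of cytochrome f (Aa31sc334G20), a carrier in photosynthetic electron transport, had 21.4, 22.5 and 22.3 CPM after 7 d and 48.6, 52.5 and 45 CPM after 14 d (log2 fold change 1.16 ± 0.14, adjusted p = 0.00422). It too kept its call in all leave-outs, and its replicates lay close together. Among subunits of the chloroplast NADH dehydrogenase-like complex, which cycles electrons around photosystem I, Aa31LG5G21720 went from 32.5, 22.9 and 21.0 CPM to 87.7, 126 and 63.0 CPM (1.86 ± 0.28, adjusted p = 0.0127) and Aa31sc932G10 from 4.06, 3.97 and 2.54 CPM to 14.2, 13.1 and 13.5 CPM (1.86 ± 0.33, adjusted p = 0.0299). Neither overlapped between the groups. The first lost its call without replicate 2 of 7 d (adjusted p = 0.098), and the second in 6 leave-outs, with an adjusted p of up to 0.123.

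The other 7 tested plastid-paired models did not pass the threshold. A further subunit of the NADH dehydrogenase-like complex (Aa31LG5G21730) had 63.4, 51.6 and 36.3 CPM after 7 d and 92.4, 148 and 87.7 CPM after 14 d (log2 fold change 1.12 ± 0.26, adjusted p = 0.109). Aa31csc39G170 differed by 2.28 ± 0.53 on the log2 scale with no overlap (adjusted p = 0.114), and Aa31csc39G120 one of 1.26 ± 0.50 (adjusted p = 0.362). Aa31LG5G21700 and Aa31LG5G21710, of the same complex as Aa31LG5G21730, had log2 fold changes of 0.69 ± 0.23 and 0.65 ± 0.30 (adjusted p = 0.281 and 0.421). In all 5 of these models replicate 2 of 14 d was the highest library and the other 14 d libraries stood closer to those of 7 d. Against the direction of the rest, the model paired with the beta subunit of the ATP synthase (Aa31LG3G17860) had 59.7, 67.5 and 50.9 CPM after 7 d and 37.9, 49.6 and 43.5 CPM after 14 d (-0.42 ± 0.16, adjusted p = 0.333). A second model paired with the RNA polymerase subunit (Aa31LG1G12170) overlapped between the groups (-0.47 ± 0.33, adjusted p = 0.537).

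Gene models paired with mitochondrion-encoded genes, which specify parts of the respiratory chain and its assembly, were mostly higher, and 1 was called. Of 83 models, which share 39 partner genes, 33 were tested. Their median log2 fold change was 1.90, 30 were positive, and in 24 the 14 d libraries lay wholly above the 7 d libraries (5.34% over all tested genes). The median was 2.12 in libraries of positive slope and 1.86 in those of negative slope. The called model, against 0.163% of all tested genes called higher, was Aa31LG10G9900. Its partner is an open reading frame described as a ribonuclease H-like superfamily protein, not as a part of the respiratory chain. The model had 11.4, 8.82 and 11.4 CPM after 7 d and 29.6, 27.1 and 19.5 CPM after 14 d (1.26 ± 0.22, adjusted p = 0.0249). That call was lost in 5 leave-outs, with an adjusted p of up to 0.147.

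A library outside the comparison stood apart for these models. Summed over the 83 models, replicate 1 of 1 d light had 1522 CPM, and replicates 2 and 3 had 285 and 367 CPM. The 7 d libraries had 809, 600 and 516 CPM and the 14 d libraries 1937, 2514 and 1517 CPM, with no overlap. Without replicate 1 of 1 d light, 18 of the 33 were called higher (0.288% of all genes tested in that fit). In a fit of the 6 libraries alone, 12 of the 30 tested there were called higher (0.15% of all), and with the slope covariate 25 of 33 (1.96% of all).

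Among them, a subunit of the mitochondrial ATP synthase (Aa31csc1168G30) had 19.9, 15.4 and 17.8 CPM after 7 d and 172, 87.3 and 128 CPM after 14 d. The groups were far apart, with a log2 fold change of 2.81 ± 0.55 and an adjusted p of 0.054 (4.0e-06 with the slope covariate). A cytochrome c assembly gene (Aa31csc239G110) had 9.59, 6.62 and 5.09 CPM against 41.5, 56.1 and 33.0 CPM (2.6 ± 0.53, adjusted p = 0.0671). A model of the ribosomal protein S12 (Aa31csc464G70) had 4.06, 7.06 and 5.09 CPM against 20.1, 11.9 and 13.5 CPM (1.38 ± 0.34, adjusted p = 0.141). No 14 d library of these 3 models reached down to the 7 d range.

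**Figure D3:**
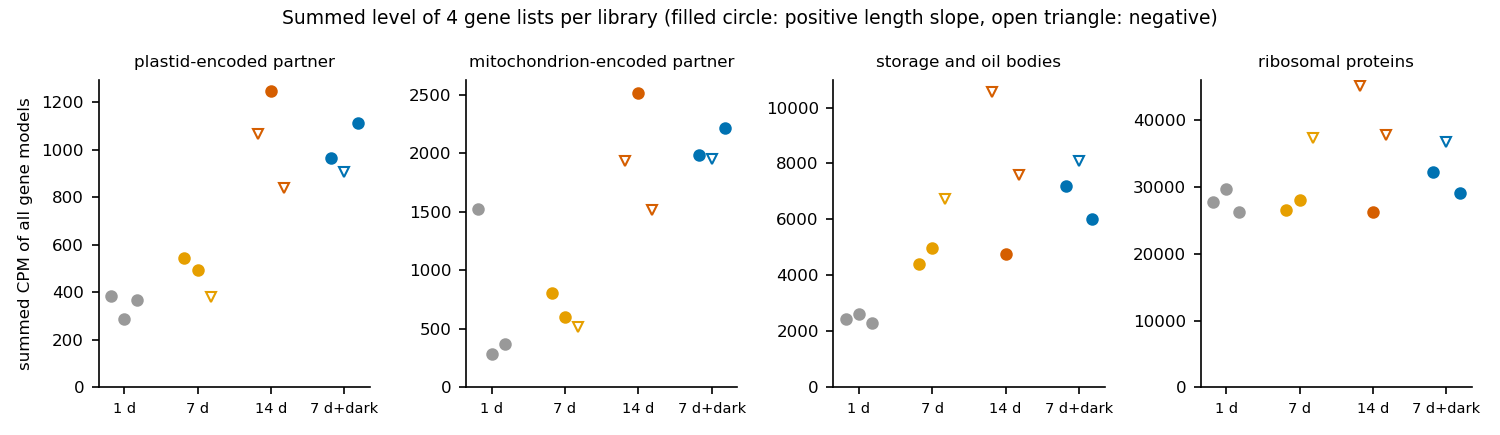
Summed CPM of all gene models of 4 lists in each of the 12 libraries, by group; filled circles are libraries of positive length slope and open triangles those of negative slope. Models paired with plastid and mitochondrial genes are higher in all 3 libraries of 14 d than in all 3 of 7 d. Within 7 d and 14 d, storage and ribosomal protein transcripts follow the slope. Replicate 2 of 14 d, at 4763 and 26250 CPM, stands beside replicates 1 and 2 of 7 d. Storage transcripts are lower after 1 d of light, at 2307 CPM in replicate 3, whose slope is also positive.

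Of the 25 gene models called higher, 7 had no Arabidopsis partner, against 595 of all 15301 tested. Of the 7, 3 kept their call without any single library. Aa31csc39G110, on the same scaffold as the chloroplast ATP synthase models, had 5.53, 4.85 and 1.91 CPM after 7 d and 26.1, 24.2 and 15.0 CPM after 14 d (log2 fold change 2.29 ± 0.28, adjusted p = 0.00422). Aa31csc553G20 had 35.8, 30.9 and 32.4 CPM against 107, 88.5 and 82.5 CPM (1.46 ± 0.19, adjusted p = 0.00485). The third, Aa31LG8G11350, was close to silent after 7 d, with 1 count over the 3 libraries against 44 after 14 d, a ratio of 62.4 (95% counting interval 10.6 to 2521). Counting intervals here cover counting error only.

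Of the other 4, Aa31LG1G6200 and Aa31sc423G30 were also near zero after 7 d, with 2 counts against 74 (a ratio of 52.5, interval 14.0 to 442) and 3 against 53 (25.1, interval 8.12 to 125). The log2 fold change of Aa31sc305G10 was 2.13 ± 0.33 (adjusted p = 0.0132). Aa31LG9G16830 had 13.3, 14.6 and 14.0 CPM after 7 d and 27.2, 37.7 and 26.2 CPM after 14 d (1.19 ± 0.19, adjusted p = 0.0142). These 4 lost their calls without replicate 2 of 7 d (adjusted p = 0.0621 to 0.098), and all but Aa31sc305G10 also without replicate 1 of 7 d.

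A transcription factor gene appeared during the second week. The partner of *MYB84* (Aa31LG4G18170), a MYB factor that in Arabidopsis acts in the formation of axillary meristems, had no count in the 3 libraries of 7 d, nor in those of 1 d. After 14 d it had 5, 13 and 6 counts (5.92, 5.33 and 4.50 CPM), at least 11.4-fold higher against a floor of 3 counts over the group (adjusted p = 0.0334). Seeds moved to darkness for the second week had 8, 6 and 3 counts. A homolog of cinnamyl alcohol dehydrogenase (Aa31LG7G14790), a family that acts in lignin synthesis, went from 1.11, 0.44 and 0.64 CPM to 7.11, 8.61 and 6.0 CPM (3.22 ± 0.52, adjusted p = 0.0167). Both calls were lost without replicate 1 or 2 of 7 d (adjusted p up to 0.141 and 0.112), and that of the *MYB84* partner also without replicate 1 or 3 of 14 d and without replicate 1 or 2 of the dark-kept seeds.

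In the ABA pathway the gene that passed the test was *CYP707A2* (Aa31LG5G7160), whose product, an ABA 8'-hydroxylase, starts the breakdown of ABA. It had 62.7, 51.6 and 48.3 CPM after 7 d and 120, 98.8 and 104 CPM after 14 d. The groups did not overlap, and the log2 fold change was 0.96 ± 0.16 (adjusted p = 0.0179; 2.95e-06 with the slope covariate). The 14 d level was close to that of 1 d light (104 ± 3.04 CPM), from which the gene had fallen in the first week. The call was lost without replicate 2 of 7 d (adjusted p = 0.13), replicate 1 of 14 d (0.0783) or replicate 3 of 14 d (0.0762). Of the other ABA hydroxylase models, both paired with *CYP707A3*, Aa31LG9G7680 had 9.22, 11 and 6.36 CPM against 3.55, 2.87 and 6.75 CPM (-1.13 ± 0.38, adjusted p = 0.28) and Aa31LG6G1940 a log2 fold change of 0.03 ± 0.27.

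The genes of ABA synthesis gave no call in the fit of 4 group means: 8 were tested, 4 had a positive log2 fold change and the median was -0.01. Of the 9-cis-epoxycarotenoid dioxygenases, which make the committed step of ABA synthesis, *NCED5* (Aa31LG6G5570) had 35, 41.5 and 44.5 CPM after 7 d and 55.7, 66.0 and 57.7 CPM after 14 d (0.60 ± 0.14, adjusted p = 0.114). *NCED9* (Aa31LG4G2560) had 21.0, 18.5 and 21.0 CPM against 23.7, 42.6 and 27.7 CPM (0.73 ± 0.27, adjusted p = 0.33). Neither overlapped between the groups, and both were called with the slope covariate (adjusted p = 0.00116 and 0.00515). *NCED6* (Aa31LG8G10550) lay lower in all 3 libraries of 14 d, at 104, 84.2 and 84.6 CPM against 73.5, 81.2 and 63.7 CPM (-0.31 ± 0.14, adjusted p = 0.399; 0.355 with the covariate). *ABA1*, *ABA2*, *ABA3*, *ABA4* and *AAO3*, the remaining enzymes of the path, overlapped between the groups, with log2 fold changes of -0.30 to 0.28.

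The lists of ABA signal transduction gave no call. Of 12 tested receptor and kinase genes of the list, 9 had a positive log2 fold change and none was called. The median was 0.26, and 0.11 with the slope covariate. These counts include 2 genes that were close to silent in both groups. *PYL8* (Aa31LG3G9320), counted as positive, had 0, 0 and 0 CPM after 7 d and 0, 0.41 and 0 CPM after 14 d. *PYL6* (Aa31LG5G19230), counted as negative, had 0, 0.44 and 0 CPM against 0, 0 and 0 CPM. Their fold changes say little on the second week. The receptor gene *PYL5* (Aa31LG11G6510) had 24.3, 25.6 and 33.1 CPM after 7 d and 41.5, 45.1 and 43.5 CPM after 14 d (0.68 ± 0.14, adjusted p = 0.0671; 0.00521 with the covariate). *PYL2* (Aa31LG5G9710) had 22.1, 23.8 and 23.5 CPM against 27.2, 29.5 and 39.0 CPM (0.47 ± 0.16, adjusted p = 0.304). Outside that list, a kinase model paired with *SnRK2.8* (Aa31LG4G8290), of the family that carries ABA and osmotic signals, was called higher, at 15.9, 15.9 and 15.3 CPM against 28.4, 24.6 and 27.7 CPM (0.75 ± 0.14, adjusted p = 0.049). Its replicates lay close together, but its adjusted p stood just inside the threshold and every leave-out but that of replicate 2 of 14 d ended the call, with values up to 0.222. The 8 tested clade A PP2C phosphatase genes, which restrain ABA signalling, had log2 fold changes of -0.23 to 0.22. Among 9 ABA-responsive transcription factor genes, *ABF3* (Aa31LG2G16430) was called higher with the covariate only (0.79 ± 0.24, adjusted p = 0.246; 0.0351 with the covariate).

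In the GA pathway 8 synthesis, 3 deactivation and 7 perception genes were tested. None passed the threshold in the fit of 4 group means. With the slope covariate 4 genes did so, in both directions, against 1.96% of all tested genes called higher and 1.37% lower. *GA3OX1* (Aa31LG7G270), among those tested, had only 0, 0.44 and 0 CPM after 7 d and none after 14 d. *GA20OX1* (Aa31sc904G10), whose product makes a late precursor of active GA, had 28.8, 19.9 and 21.6 CPM after 7 d and 11.8, 13.5 and 12.0 CPM after 14 d, without overlap (-0.90 ± 0.20, adjusted p = 0.0859; 0.0195 with the covariate). *GA20OX2* (Aa31LG3G8250) and *GA3OX2* (Aa31LG4G610), the latter an enzyme of the last step, had log2 fold changes of -0.32 ± 0.18 and 0.31 ± 0.21. The fourth gene was *RGA* (Aa31LG2G8340), a DELLA repressor of GA responses, at 104, 117 and 93.5 CPM against 91.2, 144 and 111 CPM with overlap (0.16 ± 0.16, adjusted p = 0.66; 0.0072 with the covariate). Of the GA 2-oxidases, which inactivate GA, both models paired with *GA2OX2* were tested and they went opposite ways. Aa31LG6G5630 had 8.11, 3.97 and 13.4 CPM against 23.7, 27.1 and 21.0 CPM (1.60 ± 0.35, adjusted p = 0.0859; 0.00015 with the covariate). Aa31LG10G6850 had 32.5, 24.7 and 42.6 CPM against 19.0, 17.2 and 29.2 CPM, with overlap between replicate 3 of 14 d and the 7 d libraries (-0.61 ± 0.24, adjusted p = 0.364; 0.0164 with the covariate).

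Dormancy regulators were 9 tested genes with no call, 6 positive and a median of 0.21 (0.06 with the covariate). Among the 9, *SPT* (Aa31LG6G14050) had 0.37, 0 and 0 CPM after 7 d and none after 14 d. Its negative fold change therefore says little on the second week. *RDO5* (Aa31LG9G11130), a phosphatase-like protein that deepens dormancy in Arabidopsis, had 88.1, 82.0 and 104 CPM after 7 d and 167, 118 and 136 CPM after 14 d (0.61 ± 0.14, adjusted p = 0.102; 0.00161 with the covariate). *DOGL3* (Aa31LG6G1420), a relative of *DOG1*, had 21.8, 11 and 22.9 CPM against 39.1, 24.6 and 42.0 CPM (0.87 ± 0.27, adjusted p = 0.255). Both were without overlap. *DOG1* itself (Aa31LG9G7230), the main regulator of primary dormancy in Arabidopsis, had 38.0, 34.0 and 45.8 CPM against 48.6, 35.7 and 63.7 CPM, which overlapped. Its log2 fold change was 0.30 ± 0.20 (adjusted p = 0.521), and the difference was -0.01 in libraries of positive slope and 0.28 in those of negative slope.

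Auxin transport genes gave 1 call, a rise, among 11 tested (0.163% of all tested genes were called higher). *PILS5* (Aa31LG8G14790), an auxin carrier of the endoplasmic reticulum, had 18.1, 22.5 and 14.6 CPM after 7 d and 45, 42.6 and 44.2 CPM after 14 d (1.23 ± 0.16, adjusted p = 0.00485). The 3 libraries of 14 d lay within a few CPM of each other, and the call stood without any single library. The gene also rose in the first week, from 8.32 ± 1.23 CPM after 1 d.

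**Figure D4:**
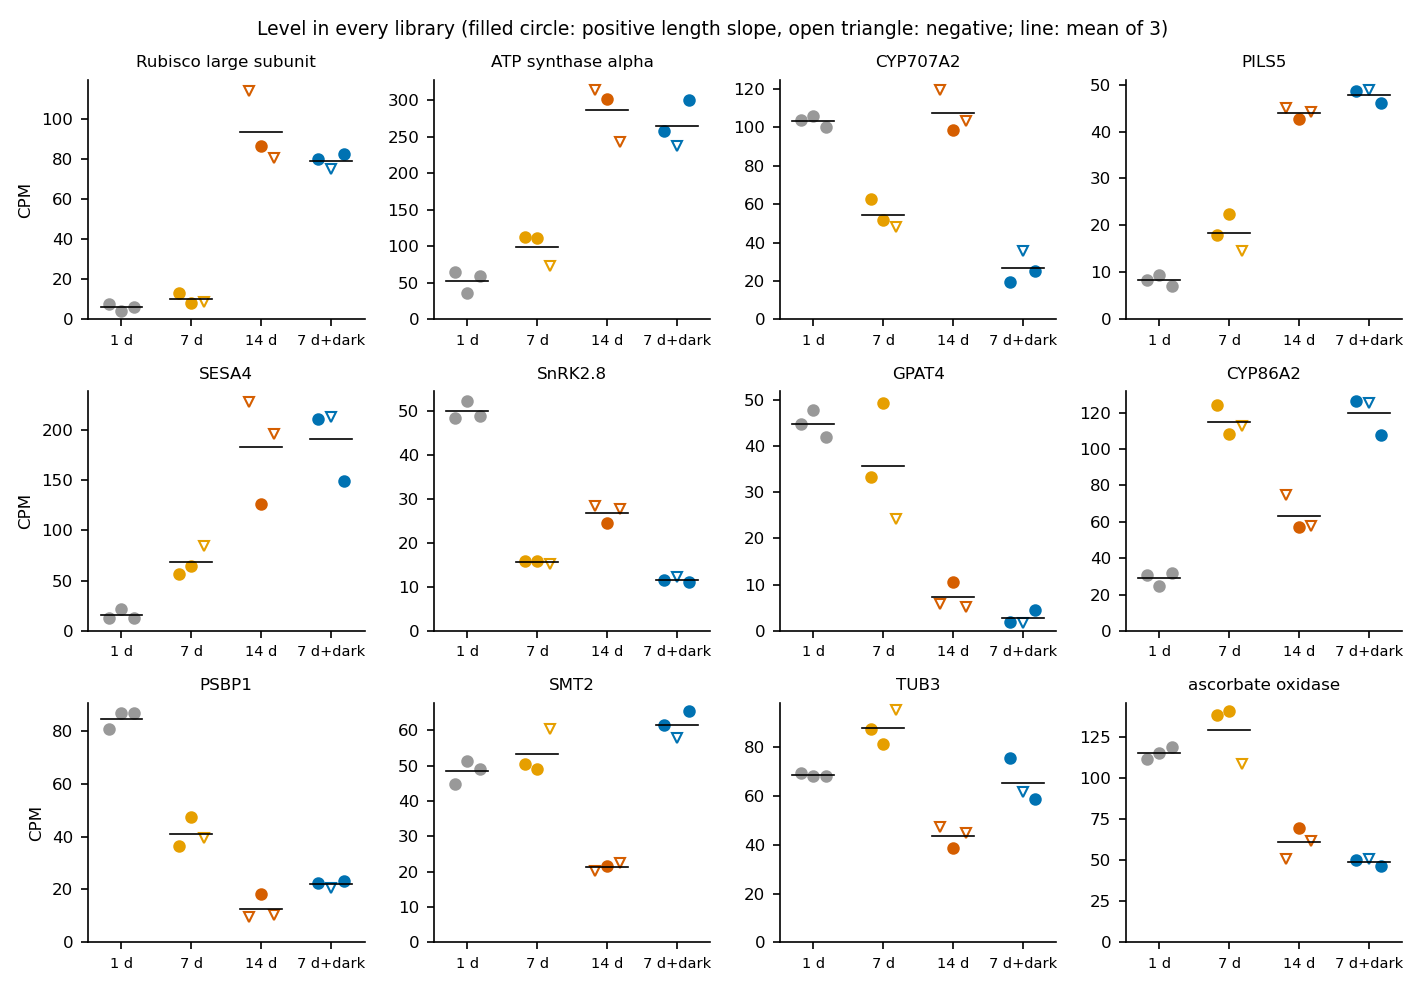
CPM of 12 called gene models in every library of the 4 groups (1 d, 7 d and 14 d of light, and 7 d of light followed by 7 d of darkness); lines are means of 3 libraries, filled circles libraries of positive length slope and open triangles those of negative slope. In each panel the 3 libraries of 14 d stand apart from the 3 of 7 d, and CYP707A2, SnRK2.8, CYP86A2, SMT2 and TUB3 differ between 14 d of light and the dark-kept seeds.

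Among storage protein genes, *SESA4* (Aa31LG5G10280), a 2S albumin, was called higher, with 56.4, 64.8 and 84.6 CPM after 7 d and 228, 126 and 196 CPM after 14 d (1.41 ± 0.25, adjusted p = 0.0323). Its neighbour by identifier, *SESA3* (Aa31LG5G10270), had 108, 132 and 184 CPM against 392, 172 and 291 CPM (1.00 ± 0.28, adjusted p = 0.199) and was called with the slope covariate (adjusted p = 0.000913). *SESA5* (Aa31LG3G10660), at 192, 227 and 334 CPM against 680, 218 and 403 CPM, was not (0.528 with the covariate). The call of *SESA4* was lost in 7 leave-outs, among them replicates 1 and 2 of 7 d and 1 and 3 of 14 d, with an adjusted p of up to 0.182. The difference was 1.05 in libraries of positive slope and 1.31 in those of negative slope for *SESA4*, 0.52 and 0.87 for *SESA3*, and 0.06 and 0.65 for *SESA5*. These albumins are close paralogs, and the sources used here do not state how reads that match several of them were counted.

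The rest of the storage list, cruciferins, vicilins, oleosins and caleosins, was not called and moved with the slope of the library. Over the whole list, the albumins included, 15 of 16 tested members had a positive log2 fold change, with a median of 0.49. Yet that median was 0.01 in libraries of positive slope, 0.39 in those of negative slope, and 0.05 with the slope covariate. Summed over the list, the level was 4394, 4995 and 6714 CPM after 7 d and 10570, 4763 and 7587 CPM after 14 d, with replicate 2 of 14 d inside the 7 d range. Late embryogenesis abundant (LEA) and desiccation genes, which protect the dry embryo, did likewise. Of 16 tested 14 were positive with a median of 0.44, which was -0.02 and 0.33 in the 2 kinds of library and 0.02 with the covariate. *EM1* (Aa31LG10G9100) had 211, 244 and 319 CPM against 511, 225 and 382 CPM (0.52 ± 0.24, adjusted p = 0.421). Ribosomal protein genes had a median of 0.21 over 286 tested, 243 of them positive and none called. Over all tested genes 48.9% were positive. That median was -0.05 in libraries of positive slope, 0.11 in those of negative slope and -0.08 with the covariate. With the covariate 6 of the 286 were called lower, a share near the 1.37% over all tested genes. Antioxidant enzyme genes (7 tested) went from a median of 0.27 to 0.03 with the covariate, and dark and starvation genes (11 tested) from 0.24 to -0.01.

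**Figure D5:**
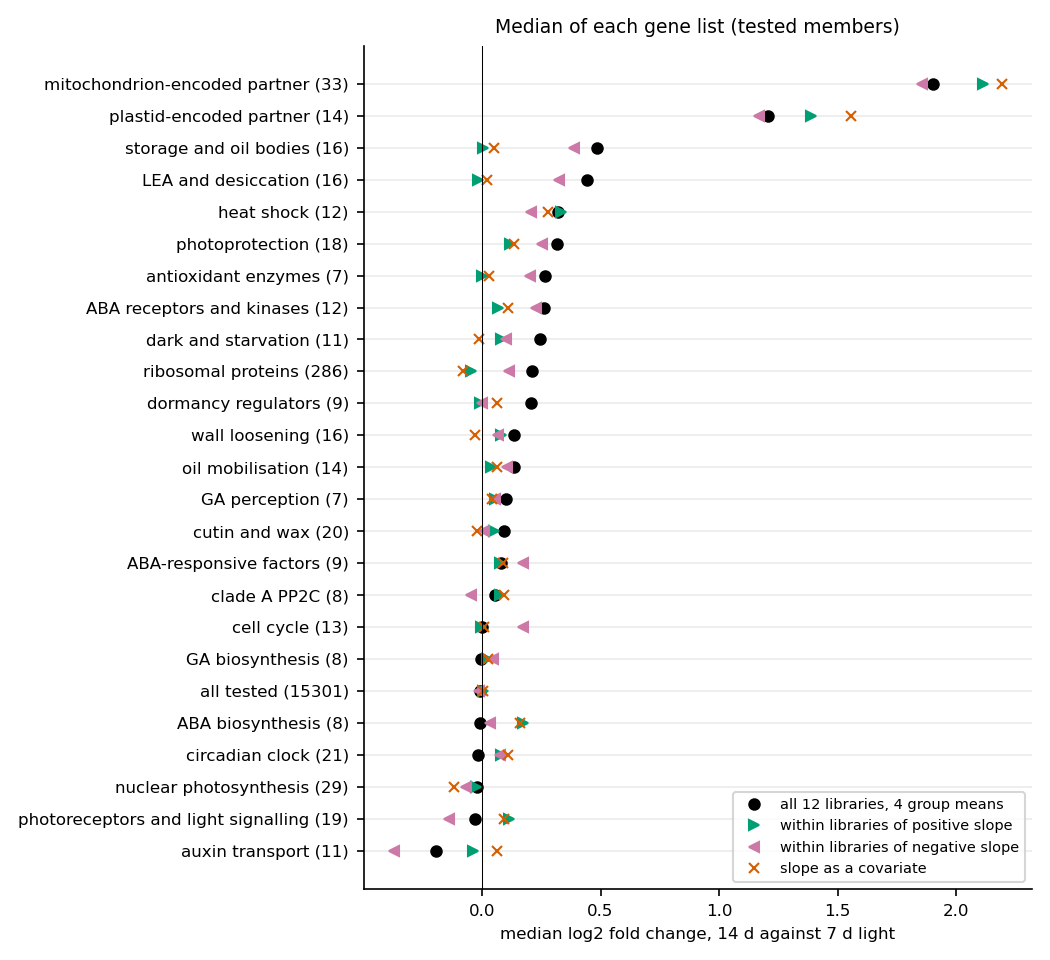
Median log2 fold change of 14 d against 7 d for each list with at least 5 tested members (number in brackets), from the fit of 4 group means (circles), within libraries of positive slope and of negative slope (triangles), and with the slope as a covariate (crosses). The 2 organelle lists lie beyond 1 by every measure and the heat shock list lies at 0.21 to 0.33; storage, LEA and ribosomal protein lists fall to near 0 within libraries of positive slope and with the covariate.

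Heat shock genes, which code for chaperones and their regulators, had a positive median by each measure. Of 12 tested, 10 were positive and 5 lay wholly higher at 14 d, with a median of 0.32. Over all tested genes 48.9% were positive and 5.34% lay wholly higher, and the spread of the list's level between replicates, 0.43 on the log2 scale, exceeded the median. The median was 0.33, 0.21 and 0.28 in libraries of positive slope, of negative slope and with the covariate; none was called in the fit of 4 group means. The chaperone gene *HSP70-4* (Aa31LG11G7660) had 214, 220 and 238 CPM after 7 d and 315, 266 and 300 CPM after 14 d (0.39 ± 0.10, adjusted p = 0.171; 0.0134 with the covariate). *HSP90.1* (Aa31LG3G8960) had 83.0, 75.0 and 78.2 CPM against 115, 101 and 84.7 CPM (0.33 ± 0.12, adjusted p = 0.328; 0.0332 with the covariate). The heat shock factor gene *HSFA2* (Aa31LG5G9630) had 8.48, 3.53 and 9.54 CPM against 13.0, 11.9 and 15.0 CPM (0.89 ± 0.31, adjusted p = 0.311). All 3 were without overlap.

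Surface lipid genes gave 2 falls within the cutin and wax list and a rise outside it. *GPAT4* (Aa31LG1G10980), an acyltransferase that makes the glycerol ester precursors of cutin, had 33.2, 49.4 and 24.2 CPM after 7 d and 5.92, 10.7 and 5.25 CPM after 14 d, which gave a fold change on the log2 scale of -2.15 ± 0.32 (adjusted p = 0.0112). After 1 d it had been at 44.8 ± 2.95 CPM, and the first-week difference did not pass the threshold (-0.30 ± 0.21, adjusted p = 0.223). It lost its call without replicate 3 of 14 d (adjusted p = 0.0698). *CYP86A2* (Aa31LG5G580), which hydroxylates the fatty acids of cutin, had 124, 108 and 113 CPM against 74.6, 57.0 and 57.7 CPM (-0.89 ± 0.14, adjusted p = 0.0127), after a rise in the first week from 29.3 ± 3.87 CPM. It lost its call without replicate 1 or 2 of 7 d or replicate 3 of 14 d (adjusted p up to 0.099). Outside the list, a 3-ketoacyl-CoA synthase, *KCS10* (Aa31LG5G9550), which acts in the epidermis in the elongation of fatty acids, was called higher at 42.0, 45.9 and 46.4 CPM against 67.5, 71.7 and 62.2 CPM (0.60 ± 0.11, adjusted p = 0.0334), with an adjusted p of up to 0.162 in the leave-outs. Over the cutin and wax list, 20 were tested, 2 were called lower, 12 were positive and the median was 0.09. Over all tested genes 0.144% were called lower and 48.9% were positive.

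Nuclear genes of photosynthesis gave a single call, a fall (0.144% of all tested genes were called lower). Of 29 tested, 14 were positive (48.9% over all tested genes) and the median was -0.02. *PSBP1* (Aa31LG1G7720), a subunit of the oxygen-evolving complex of photosystem II, had 36.5, 47.2 and 39.4 CPM after 7 d and 9.48, 18.4 and 10.5 CPM after 14 d (-1.54 ± 0.20, adjusted p = 0.00489), and stayed called without any single library. It had been at 84.5 ± 3.5 CPM after 1 d. A second model paired with *PSBP1*, Aa31LG5G6070, overlapped between the groups, at 39.5, 52.1 and 52.8 CPM against 42.7, 51.2 and 52.5 CPM (0.05 ± 0.14, adjusted p = 0.881), and was the more abundant of the pair after 14 d. *LHCB1.4* (Aa31LG10G6950), a chlorophyll-binding antenna protein, had 12.2, 8.82 and 8.27 CPM against 8.29, 4.51 and 5.25 CPM (-0.87 ± 0.27, adjusted p = 0.251). *PSBX* (Aa31sc551G20), a small photosystem II subunit, had 8.85, 8.82 and 14.0 CPM against 4.74, 5.33 and 6.0 CPM (-0.90 ± 0.31, adjusted p = 0.291). With the slope covariate 2 members were called lower (1.37% of all tested genes) and none higher (1.96%), and the median was -0.12.

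Light perception and the clock gave no call. None of 19 photoreceptor and light signalling genes, 18 photoprotection genes and 21 clock genes was called in the fit of 4 group means. *PHOT1* (Aa31LG4G15020), a blue light receptor, had 88.9, 88.2 and 70.6 CPM against 97.1, 125 and 92.2 CPM (0.35 ± 0.14, adjusted p = 0.366; 4.63e-05 with the covariate), and *PIF1* (Aa31LG8G17110), a repressor of light responses in seeds, had 157, 154 and 134 CPM against 176, 185 and 154 CPM (0.21 ± 0.11, adjusted p = 0.447; 0.0187 with the covariate). The clock genes *PRR9* (Aa31LG1G28160) and *RVE1* (Aa31LG11G12380) did not overlap between the groups, with log2 fold changes of 0.56 ± 0.18 and -0.42 ± 0.13 (adjusted p = 0.255 and 0.257). Among photoprotection genes, *FLS1* (Aa31LG3G17900), which makes flavonols, had 53.1, 48.1 and 68.7 CPM against 80.6, 65.6 and 90.0 CPM (0.47 ± 0.17, adjusted p = 0.308). *PSBS* (Aa31LG6G9330), which sheds excess light energy, had 101, 117 and 126 CPM against 166, 126 and 140 CPM (0.32 ± 0.13, adjusted p = 0.382).

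Of the 22 gene models called lower, 4 besides *PSBP1* kept their call without any single library. *SMT2* (Aa31LG4G6210), a sterol methyltransferase that sets the makeup of membrane sterols, had 50.5, 49.0 and 60.4 CPM after 7 d and 20.1, 21.7 and 22.5 CPM after 14 d (-1.29 ± 0.14, adjusted p = 0.00168). Another model with the same partner, Aa31LG7G4690, had 43.2, 47.2 and 46.4 CPM against 33.2, 36.1 and 33.7 CPM (-0.39 ± 0.12, adjusted p = 0.251). A tubulin gene, *TUB3* (Aa31LG5G6910), whose product builds microtubules, had 87.4, 81.6 and 95.4 CPM against 47.4, 38.9 and 45 CPM (-1.03 ± 0.13, adjusted p = 0.00422). An ascorbate oxidase (Aa31LG1G13670), an enzyme of the cell wall space that oxidises ascorbate, had 138, 141 and 108 CPM against 50.9, 69.7 and 61.5 CPM (-1.06 ± 0.13, adjusted p = 0.00422). The groups did not overlap in these genes, as in every called gene model, so the separation is no further evidence for them. A PLAT/LH2 domain protein gene (Aa31LG7G14560) had 20.6, 18.5 and 17.8 CPM against 5.92, 5.74 and 4.50 CPM (-1.81 ± 0.19, adjusted p = 0.00168), and continued a fall from 73.5 ± 3.31 CPM after 1 d.

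Cell wall, protease and transport genes were also among the falls. A subtilase, *SBT1.3* (Aa31LG3G8200), a secreted protease, had 106, 104 and 75.1 CPM after 7 d and 37.9, 50.4 and 25.5 CPM after 14 d (-1.28 ± 0.21, adjusted p = 0.0177). A glycosyl hydrolase of family 17 (Aa31LG10G10460) had 16.6, 18.1 and 17.2 CPM against 7.11, 8.20 and 6.75 CPM (-1.19 ± 0.23, adjusted p = 0.0496), and an Ole e 1 and extensin family gene (Aa31LG9G14540) 26.9, 34.4 and 33.7 CPM against 11.8, 18.9 and 14.2 CPM (-0.97 ± 0.19, adjusted p = 0.0496). None overlapped between the groups. A xanthine and uracil permease (Aa31LG11G750) fell from 26.2, 24.7 and 19.7 CPM to 7.11, 13.1 and 6.75 CPM (-1.26 ± 0.23, adjusted p = 0.0374). *ALDH11A3* (Aa31LG7G12540), a non-phosphorylating glyceraldehyde-3-phosphate dehydrogenase, fell from 25.4, 22.9 and 29.9 CPM to 10.7, 11.9 and 7.50 CPM (-1.32 ± 0.21, adjusted p = 0.0167). The last 2 had also fallen in the first week, both from a mean of 107 CPM. All 5 lost their calls without replicate 1 or 2 of 7 d and without replicate 1 or 3 of 14 d, with adjusted p of up to 0.222.

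The remaining falls had log2 fold changes of -0.58 to -2.06. They included the partner of *effector of transcription2* (Aa31LG3G12720; 20.6, 21.2 and 22.9 CPM against 10.7, 10.7 and 8.25 CPM), a gene that modulates GA responses in Arabidopsis, with a log2 fold change of -1.1 ± 0.18 (adjusted p = 0.0167). A remorin (Aa31sc633G10), a protein of plasma membrane domains, fell by 1.11 ± 0.20 on the log2 scale (adjusted p = 0.0305). A putative serine esterase (Aa31LG1G4900), an ARM repeat protein (Aa31LG2G18200), a DUF1645 protein (Aa31LG1G28780) and the partner of a gene with no description (Aa31LG8G210) fell by 1.1, 1.2, 1.5 and 1.38 on the log2 scale. The smallest called falls were those of an acyltransferase (Aa31LG5G15880, -0.58 ± 0.11), a DUF647 protein (Aa31LG1G1170, -0.62 ± 0.12) and an HRF1 family membrane protein (Aa31LG9G16290, -0.81 ± 0.13), and the largest of this group was Aa31LG8G1010 (-2.06 ± 0.33). Each of these 10 lost its call in at least 2 leave-outs.

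Rises not yet described were a SEC14 family gene (Aa31LG6G12700), of lipid transfer proteins, at 59.4, 59.5 and 84.0 CPM against 171, 96.7 and 152 CPM (1.03 ± 0.19, adjusted p = 0.049), a glycine-rich protein (Aa31LG2G1450, 0.61 ± 0.10, adjusted p = 0.0231) and the partner of a gene with no description (Aa31LG5G2410, 21.4, 19.9 and 26.1 CPM against 46.2, 48.8 and 48.7 CPM; 1.12 ± 0.15, adjusted p = 0.0076). All 3 were without overlap. The call of the SEC14 gene was lost in every leave-out but those of replicate 3 of 7 d and replicate 2 of 14 d (adjusted p up to 0.233), that of the glycine-rich protein in 7 leave-outs (up to 0.148) and that of Aa31LG5G2410 without replicate 1 or 2 of 7 d (0.0504 and 0.0567).

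Genes of germination progress showed no call. Of 16 tested wall loosening genes 10 were positive with a median of 0.14 (-0.03 with the slope covariate), and of 13 cell cycle genes 6, with a median of 0.00. The endo-beta-mannanase gene *MAN5* (Aa31LG2G22180), of a family that softens endosperm walls, had 20.6, 14.6 and 17.8 CPM after 7 d and 26.1, 28.7 and 30.7 CPM after 14 d (0.69 ± 0.17, adjusted p = 0.152; 0.0413 with the covariate). The xyloglucan endotransglucosylase gene *XTH16* (Aa31LG8G10270) had 48.3, 44.5 and 56.6 CPM against 30.8, 34.8 and 46.5 CPM, with overlap (-0.39 ± 0.16, adjusted p = 0.363; 0.039 with the covariate). Oil mobilisation genes, 14 tested, had a median of 0.14 and no call in either fit.

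The 14 d seeds and the seeds moved to darkness after 7 d had the same age, and the same fit tested their difference (1999 called gene models, 13.1%). The 14 d libraries are shared with the second-week comparison, so the values are given side by side. Of the 8 organelle-paired models called higher after 14 d, none was called different from the dark-kept seeds, with log2 differences of -0.22 to 0.60 and SE of 0.129 to 0.295. Summed over all plastid-paired models, the dark-kept seeds had 964, 905 and 1115 CPM, within the range of the 14 d libraries. *PILS5* was at 47.9 ± 1.58 CPM and the ascorbate oxidase at 49.1 ± 2.13 CPM in the dark-kept seeds, and their differences from 14 d light were -0.13 ± 0.14 and 0.34 ± 0.14 (adjusted p = 0.635 and 0.149).

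Of the 25 gene models called higher, 3 were called different between the treatments, and of the 22 called lower, 8. *CYP707A2* was at 26.8 ± 8.27 CPM in the dark-kept seeds, 2.01 ± 0.18 log2 units below 14 d light (adjusted p = 1.35e-05), and these were the lowest of the 4 groups. *SMT2* was at 61.6 ± 3.82 CPM in the dark-kept seeds, with 14 d light 1.51 log2 units lower (-1.51 ± 0.14, adjusted p = 1.70e-05). *CYP86A2* was at 120 ± 10.6 CPM, with a difference of -0.95 ± 0.14 (adjusted p = 0.000723). *GPAT4* was at 2.70 ± 1.52 CPM in the dark-kept seeds (difference 1.48 ± 0.55, adjusted p = 0.0995).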

How the data were processed

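Libraries came from poly(A)-selected RNA (a Lexogen SENSE kit), per the labels' protocols. HTSeq 0.11.2, Bowtie2 2.3.5.1, bcl2fastq 2.17.1 and Trimmomatic appear in the submitters' processing notes beside a build named TAIR10. Their roles and the strand setting are not given here by any source. The authors deposited raw counts and RPKM per gene model; counts were used, RPKM was not. Library totals were 916523 to 3996148 counts, and untested models held 0.379% of them.

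Counts were fitted with edgeR 4.0.16 (R 4.3.3): default expression filter, TMM, 4 group means over 12 libraries (8 residual degrees of freedom), quasi-likelihood F-test, two-sided, Benjamini-Hochberg over 15301 genes, threshold 0.05. Each SE is the size of the log2 fold change divided by the root of its F. Differences within libraries of like slope use log2 CPM with a prior count of 2. DESeq2 1.42.0 and limma 3.58.1 gave alternatives. The fits were tested on simulated counts.

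Names were drawn from all called models, from the 4 members of each list with the smallest p, from the ABA and GA metabolism, dormancy, storage and plastid lists (not every member is named), and from models above 1% of a library's counts (there were none). The members and lists were chosen with earlier results of these data known. Lists rest on Arabidopsis partners in the table (329 of 391 listed genes paired); ribosomal proteins were taken by description. Same-numbered replicates of 7 d and 14 d correlated in their deviations at -0.31, 0.48 and 0.36, so numbers were not taken as pairs.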

Additional observations from a re-analysis of the deposited data

Results flagged for a closer look

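Of the 47 gene models called in the second week, 11 also differed, in the test of that difference itself, between seeds kept in light for the second week and seeds of the same age moved to darkness (log2 difference, 14 d light against light then dark; 13.1% of all tested genes were called in that contrast). Both tests share the 14 d libraries. Among those higher after 14 d of light, *CYP707A2* (Aa31LG5G7160) differed by 2.01, Aa31LG9G16830, which has no Arabidopsis partner, by 1.77 (9.12 ± 1.63 CPM in the dark-kept seeds; SD, n = 3) and the *SnRK2.8* partner (Aa31LG4G8290) by 1.19 (11.6 ± 0.57 CPM). Among those lower, *SMT2* (Aa31LG4G6210) differed by -1.51, the PLAT/LH2 gene (Aa31LG7G14560) by -1.03, *CYP86A2* (Aa31LG5G580) by -0.95, *ALDH11A3* (Aa31LG7G12540) by -0.91, the permease (Aa31LG11G750) by -0.90, the Ole e 1 family gene (Aa31LG9G14540) by -0.68, the DUF647 gene (Aa31LG1G1170) by -0.64 and *TUB3* (Aa31LG5G6910) by -0.60. Adjusted p ranged from 1.35e-05 (*CYP707A2*) to 0.0412 (the Ole e 1 family gene), by edgeR's quasi-likelihood test. Over all alternatives run, 30 of 274 values of these results missed the threshold: 5 of the gene models (*CYP707A2*, Aa31LG9G16830, the *SnRK2.8* partner, *SMT2* and *CYP86A2*) were called in each, and 6 were lost in at least 1, most often the Ole e 1 family and PLAT/LH2 genes.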

How the results depend on the processing

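Against 47 calls (25 higher, 22 lower), there were 79 (46 higher) with DESeq2, 4520 (2417 and 2103) with voom quality weights, where replicate 2 of 14 d had the lowest weight (0.201), 24 (3 lower; 9 shared with the 47) with the 6 libraries alone and 23 (14 and 9; 19 shared) thinned to the smallest library. With the length trend removed there were 70 (33 and 37). Leaving out a library gave 13 to 1662 calls, 7 to 919 higher and 5 to 743 lower. A replicate block gave 25 (14 and 11), and 41 higher and 14 lower in the 6 libraries; replicate 1 of 7 d correlated best with replicate 2 of 14 d (0.52). Added after the data were seen, the slope covariate gave 510 (300 and 210), the sign of the slope as a block 310 (151 and 159), or 398 (207 and 191) in the 6 libraries, and positive-slope libraries alone 96 (54 and 42), where the lone 14 d library is assumed to vary like the others. In that last fit *DOG1* (-0.025) and *EM1* (-0.014) changed sign; no called gene reversed in any setting run. Other scalings and filters gave 36 to 52 calls. Why the counts differ was not tested. The shallowest library, replicate 1 of 14 d, had 916523 counts.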
